A study of Danio rerio with 6 samples.

Results

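Collagens are the triple-helical proteins that build the fibrils, sheets and filaments of the extracellular matrix, and their messenger RNAs were measured here in zebrafish embryos with and without an intact gene for threonyl-tRNA synthetase, tars. The members were the genes whose symbol in the count tables starts with "col" followed by a collagen type and chain number, with a mean of at least 1 CPM (read counts scaled so that every library has the same total) over the 6 libraries. Of 57 genes with such a symbol, 52 passed the minimum, out of 19194 genes that did so among 34326 in the tables. Of these 52, col4a3bpa and col4a3bpb code for the ceramide transfer protein, which is no collagen, and they stay in the counts because the rule took them in. The other 50 are collagen chains with 48 different symbols, since col6a3 and col19a1 each stand for 2 gene identifiers, and reads of the same chain may be divided between such a pair. The 5 genes under the minimum were col26a1 at a mean of 0.17 CPM, col8a1b at 0.30, col5a2b at 0.35, col28a1b at 0.56 and col10a1b at 0.66. The members just above it were col10a1a and 1 of the col19a1 genes, at 1.08 and 1.09 CPM.

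RNA was sequenced from whole embryos at 36 hours post-fertilization (hpf), with 1 library for each of 6 conditions, and all embryos were raised in egg water with the pigment blocker 1-phenyl-2-thiourea. The tars-/- embryos are homozygous for an ENU-induced nonsense mutation of tars, and the sibling embryos, labelled WT, come from the same line. Whether heterozygotes were among the siblings, how many embryos went into a library, and whether these embryos carried the vessel reporter Tg(flk1:EGFP) is not given in the sources used here. Embryos of both genotypes were left uninjected or received, at the one-cell stage, a morpholino (MO, an antisense oligonucleotide that lowers the amount of a protein) against gcn2 or against perk, which code for kinases of the amino acid response and of the unfolded protein response. The controls were thus not injected with a control MO, so the injection itself and the knockdown cannot be told apart. Below, sets of 3 values are always in the order uninjected, gcn2 MO, perk MO.

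Fibrillar collagens are secreted as procollagens of 3 chains and trimmed into the fibrils of bone, tendon, cartilage and skin. Type IV collagens form the sheet of basement membranes, FACIT collagens sit on the surface of fibrils, type VI makes beaded filaments around cells, and types VII and XVII tie the epidermis to the dermis. In the zebrafish embryo, type II, type IX and type XI chains are abundant in the sheath of the notochord, and type I chains in the skin and fin fold. Collagen chains are hydroxylated and folded in the endoplasmic reticulum, which is why they are a well-known load on the secretory pathway.

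The libraries held between 29949451 and 47516784 counted reads. tars was at 71.6, 68.1 and 95.9 CPM in the sibling libraries and 37.3, 21.3 and 33.9 CPM in the mutant ones, lower in each mutant library than in every sibling library. With 1 library per condition, spread within a condition was not measured, and no pair of libraries was tested. The 95% intervals of ratios are therefore exact Clopper-Pearson intervals that cover counting error only, and a gene is called apart at 2-fold on the scale of log2(CPM + 0.5). In whole embryos, fewer cells of a type and less RNA per cell cannot be told apart.

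The collagen members together took between 1.41% and 1.62% of the reads of a library. They were at 15740, 16234 and 14891 summed CPM in the sibling libraries and 14105, 15536 and 15162 in the mutant ones. The uninjected tars-/- library was thus the lowest, and the 6 sums lay close to each other compared with the single genes described below. Per gene length (FPKM), the 15 fibrillar chains that passed held 70.6% of the collagen signal, the 12 FACIT chains 15.7% and the 6 type IV chains 5.21%. The highest mean was that of col1a1a, at 522 FPKM, with col1a1b at 269, col1a2 at 247 and col2a1a at 239 FPKM. col1a1a, whose lowest library stood at 477 FPKM, was above every other collagen in every library, whereas the ranges of the next 3 chains overlapped. Among the FACIT chains, col9a1b led with a mean of 109 FPKM and col9a2 followed at 68.3 FPKM. col4a5 (86.1 FPKM) and col4a6 (32.2 FPKM) led the type IV chains, and col18a1a (76.2 FPKM) the multiplexins, which are collagens of basement membranes.

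The comparison of uninjected tars-/- with uninjected siblings asks whether loss of Tars alone altered collagen transcripts. Of the 52 members, 0 were at least 2-fold apart, against 1.68% of all genes, and the log2 ratios ran from −0.65 for col21a1 to 0.12 for col14a1b. Their median log2 ratio was −0.18 and that of all genes was −0.11, which is a description of these 2 libraries. The members also spread less than genes in general, with an interquartile range of 0.19 against 0.34 log2 units. In all, 44 of 52 members were lower in tars-/-, where 66.9% of all genes were lower, and with edgeR's TMM factors, which brought the median of all genes to 0.00, the count was 35. Against the median of all genes, 37 members lay below and 15 above.

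**Figure D1:**
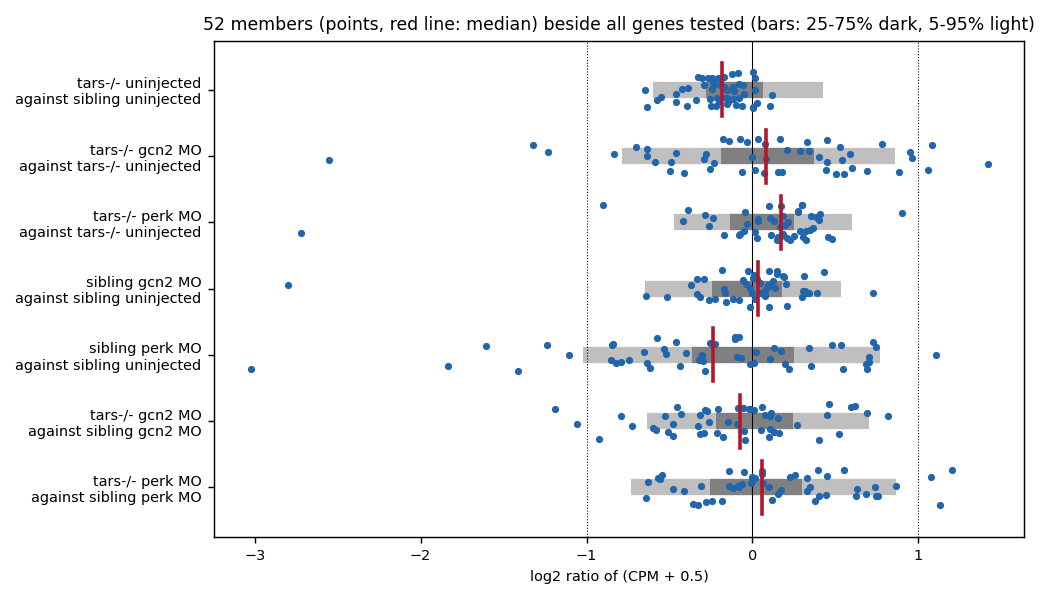
The log2 ratio of (CPM + 0.5) of the 52 members (blue points, with their median as a red line) in the 7 comparisons, over grey bars for all genes tested (dark from the 25th to the 75th percentile, light from the 5th to the 95th); dotted lines mark 2-fold. The members lie within 2-fold in tars-/- against siblings without injection, and spread to both sides with gcn2 MO in tars-/- and with perk MO in siblings.

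The most abundant collagen, col1a1a (ENSDARG00000012405), which codes for an alpha1 chain of type I collagen, was at 3619, 3418 and 3034 CPM in the sibling libraries and 2958, 2952 and 2873 CPM in the mutant ones. It was lower in tars-/- than in siblings in every injection state. The 2 genotypes did not overlap on this scale, but with TMM factors uninjected tars-/- (3104 CPM) was above siblings with perk MO (3069 CPM), and they also overlapped with DESeq2 size factors. Its ratio of tars-/- to siblings without injection was 0.817 (0.811 to 0.824). The co-ortholog col1a1b was at 1706, 1701 and 1387 CPM in the sibling libraries and 1429, 1398 and 1443 CPM in the mutant ones. Here the genotypes overlapped, because the sibling library with perk MO was the lowest of the 6. col1a2, the alpha2 chain, was at 1537, 1551 and 1165 CPM in the sibling libraries and 1485, 1264 and 1516 CPM in the mutant ones. Its uninjected libraries thus differed by less (ratio 0.966, 0.955 to 0.978) than the libraries within either genotype did. Markers of the fin fold, where type I chains are abundant, were read beside these chains. The 8 markers summed to 1201, 1131 and 1026 CPM in siblings and 1065, 1002 and 936 CPM in tars-/-. Without injection, 8 of 8 were lower in tars-/- (66.9% of all genes), with a median log2 ratio of −0.23 beside −0.11 for all genes. With gcn2 MO 5 were lower and 3 higher, and with perk MO 6 were lower and 2 higher. Their part in the type I values was not tested.

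The type IV chains were lower in tars-/- without injection in 6 of 6 cases (5 of 6 with TMM factors), against 66.9% of all genes. On the CPM scale this was shared by 15 of 15 fibrillar and 5 of 5 type VI chains, while 7 of 12 FACIT chains were lower. The fibrillar median log2 ratio was −0.17 beside −0.11 for all genes, and the highest fibrillar chain was at −0.05. With TMM factors, which bring the median of all genes to 0.00, not all 15 fibrillar chains stayed lower. The type IV sum was 953, 1027 and 1026 CPM in the sibling libraries and 751, 1034 and 874 CPM in the mutant ones. Only the uninjected tars-/- library and, less so, that with perk MO were under the siblings, with a summed ratio of 0.788 (0.776 to 0.8) for the uninjected pair. col4a5 was at 548, 603 and 628 CPM in the sibling libraries and 433, 624 and 506 CPM in the mutant ones. col4a6, which lies next to col4a5 in the zebrafish genome, was at 285, 295 and 289.5 CPM in the sibling libraries and 217, 297 and 244 CPM in the mutant ones. These 2 chains were thus near the sibling level in tars-/- with gcn2 MO, with ratios to siblings with gcn2 MO of 1.03 (1.02 to 1.06) and 1.01 (0.979 to 1.04). Of the 6 type IV chains, 4 were lower in tars-/- than in siblings with gcn2 MO (5 with TMM factors), with log2 ratios down to −0.48 for col4a4. Their median log2 ratio was −0.10 beside 0.02 for all genes. With perk MO in both genotypes, 4 of the 6 were higher in tars-/-, although the summed level was lower. The median there was 0.14 beside 0.00 for all genes.

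The comparisons with an MO ask whether knockdown of Gcn2 or Perk altered these transcripts in tars-/- embryos, and the same injections in siblings serve as their background. In tars-/- with gcn2 MO against uninjected tars-/-, 3 of 52 members were at least 2-fold higher and 3 at least 2-fold lower, against 2.97% and 2.68% of all genes. The higher ones were col5a3a, col24a1 and col8a1a, and the lower ones col10a1a, col28a2a and col17a1a. Of these, col10a1a passed the abundance minimum only through the uninjected libraries, in which it is high. Its falls with an MO, here and in the counts below, therefore say nothing about the members as a group. With TMM factors or DESeq2 size factors 1 member, col5a3a, was 2-fold higher and 3 were lower, since col24a1 and col8a1a had log2 ratios of 0.98 and 0.96 there. The median log2 ratio of the members was 0.08 beside 0.09 for all genes (−0.015 beside −0.0032 with TMM factors, where 25 of 52 were higher instead of 30), but their interquartile range was wider, at 0.79 against 0.56. With perk MO in tars-/-, 1 of 52 members, col10a1a, was 2-fold lower and 0 were 2-fold higher, against 0.5% and 0.781% of all genes. There the members' median was 0.17 beside 0.05, and 39 of 52 were higher (35 with TMM factors), against 57.6% of all genes.

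In siblings, gcn2 MO left 1 of 52 members, again col10a1a, 2-fold lower and 0 higher, against 1.11% and 0.745% of all genes. The medians were 0.04 for the members and −0.02 for all genes. The limit given above for col10a1a holds here and for perk MO in siblings. The library of siblings with perk MO stood further away. In it 6 members were at least 2-fold lower than in uninjected siblings and 1 was higher, against 5.27% and 2.5% of all genes. The 6 were col10a1a, col17a1a, col18a1b, both col6a3 genes and col21a1, and the higher gene was col5a3a. The members' median was −0.24 beside −0.04 for all genes, and their interquartile range 0.84 against 0.61. The library with perk MO in siblings and that with gcn2 MO in tars-/- thus held most of the members' large differences. At a threshold of 1.5-fold, 22 members were apart with perk MO in siblings (23.9% of all genes) and 18 with gcn2 MO in tars-/- (21.2%). The counts were 3 in siblings with gcn2 MO (10.3%), 3 in tars-/- with perk MO (8.3%) and 2 between the uninjected genotypes (8.41%), and between the genotypes they were 10 with gcn2 MO (13.9%) and 12 with perk MO (19.4%).

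**Figure D2:**
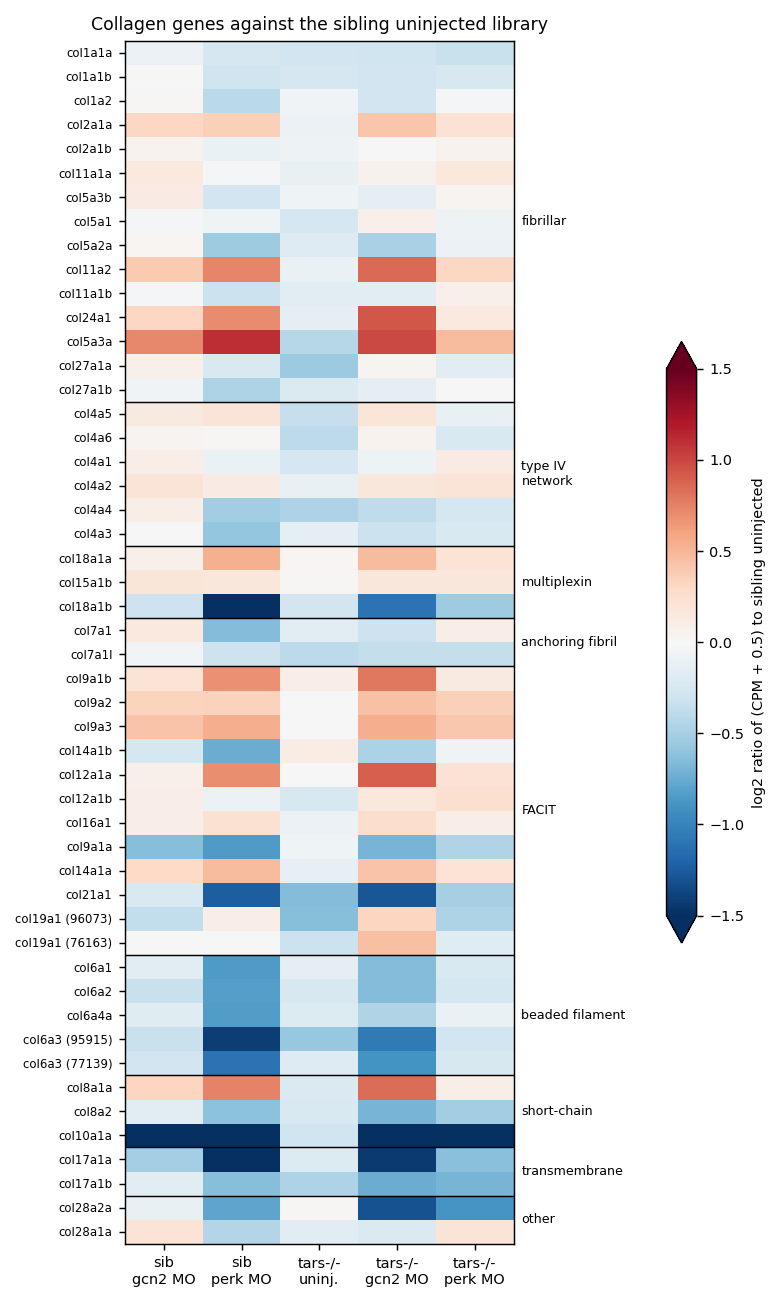
Log2 ratio of (CPM + 0.5) of the 50 collagen chains in 5 libraries to the uninjected sibling library, grouped by structural class and ordered by mean FPKM within a class (red higher, blue lower, colours capped at 1.5). The columns of siblings with perk MO and of tars-/- with gcn2 MO show the strongest colours, with the type VI, type XVII and type XXVIII chains blue, and col5a3a, col24a1, col11a2, col8a1a, col9a1b and col12a1a red.

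Between the genotypes with the same MO, 2 of 52 members were 2-fold lower in tars-/- with gcn2 MO than in siblings with gcn2 MO and 0 higher, against 1.17% and 1.85% of all genes. These were col28a2a and col21a1. With perk MO in both genotypes, 3 members were 2-fold higher in tars-/- and 0 were lower, against 3.39% and 2.01% of all genes. They were col17a1a, the shorter col6a3 gene and col18a1b, which are also among the genes at their lowest in siblings with perk MO, so these values rest on that 1 sibling library.

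The 2 type XVII genes code for the transmembrane collagen of hemidesmosomes, the anchors of basal epidermal cells. col17a1a (ENSDARG00000069415) was at 125, 87.7 and 34.9 CPM in the sibling libraries and 108, 45.9 and 81.1 CPM in the mutant ones. Both uninjected libraries were above all 4 injected ones, and the sibling perk MO and tars-/- gcn2 MO libraries were the 2 lowest. The ratio to the uninjected library was 0.278 (0.26 to 0.297) with perk MO in siblings and 0.423 (0.398 to 0.45) with gcn2 MO in tars-/-, but 0.699 (0.668 to 0.731) for the gcn2 MO in siblings and 0.748 (0.715 to 0.782) for the perk MO in tars-/-. Its paralog col17a1b, at lower levels of 16.3, 14.6 and 10.4 CPM in the sibling libraries and 11.7, 9.58 and 9.87 CPM in the mutant ones, was lower in tars-/- than in siblings in every injection state. The sum of basal epidermis markers varied less, while the single markers went both ways. With perk MO in siblings and with gcn2 MO in tars-/-, 2 of the 4 markers above the minimum were higher and 2 lower. Their part in the col17a1a values was not tested. The 4 of 5 listed genes that passed the minimum, tp63, krt5, krtt1c19e and itgb4, summed to 3219, 3578 and 2974 CPM in the sibling libraries and to 3297, 3138 and 3296 CPM in the mutant ones, and lamb3 was at 0.30 CPM or less. itgb4, which codes for another hemidesmosome component, was at 64.8, 69.6 and 66.8 CPM in the sibling libraries and 52.03, 67.8 and 68.5 CPM in the mutant ones.

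col7a1, the collagen of the anchoring fibrils below the epidermis, was at 135, 149 and 85.4 CPM in the sibling libraries and 119.6, 109 and 145 CPM in the mutant ones. Only siblings with perk MO were well below the rest, with a ratio to the uninjected siblings of 0.634 (0.605 to 0.665). col7a1l was at 42.7, 41.5 and 34.4 CPM in the sibling libraries and 32.5, 33.3 and 33.2 CPM in the mutant ones, and with col1a1a and col17a1b it was 1 of 3 members lower in tars-/- in all 3 injection states. That is 5.77% of the members, where 12.1% of all genes had the pattern. The reverse pattern was found in 1 member, col9a2, or 1.92%, against 8.44% of all genes, and its ratio without injection was 1 (0.973 to 1.03).

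The type VI chains, which assemble into microfibrils around muscle and other mesenchymal cells, had the same 2 lowest libraries. Their 5 genes summed to 445, 375 and 236 CPM in the sibling libraries and to 385, 280.1 and 384 CPM in the mutant ones. Siblings with perk MO were the lowest library and tars-/- with gcn2 MO the next lowest for each of the 5 genes. These were the 2 lowest libraries in 18.9% of all genes. The summed ratio to the uninjected library was 0.53 (0.515 to 0.545) with perk MO in siblings and 0.728 (0.709 to 0.747) with gcn2 MO in tars-/-, whereas it was 0.998 (0.976 to 1.02) with perk MO in tars-/-. All 5 genes were lower in tars-/- than in siblings without injection and with gcn2 MO, and all 5 were higher with perk MO, under CPM, TMM and DESeq2 size factors. In single genes, col6a1 (ENSDARG00000074908) was at 123, 109.6 and 68.1 CPM in the sibling libraries and 111, 78.4 and 105 CPM in the mutant ones. col6a2 was at 109, 86.7 and 61.6 CPM in the sibling libraries and 92.8, 69.6 and 90.7 CPM in the mutant ones. These 2 chains, which pair with an alpha3-like chain in 1 filament, had nearly the same ratios in siblings with perk MO, 0.552 (0.524 to 0.582) and 0.563 (0.533 to 0.595). The longer col6a3 gene (ENSDARG00000077139) was at 90.0, 73.5 and 41.6 CPM in the sibling libraries and 79.0, 48.3 and 76.3 CPM in the mutant ones. The shorter one (ENSDARG00000095915) was at 18.5, 14.5 and 6.61 CPM in the sibling libraries and 12.2, 8.58 and 15.1 CPM in the mutant ones. col6a4a was at 104, 91.2 and 57.7 CPM in the sibling libraries and 90.0, 75.3 and 96.6 CPM in the mutant ones.

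Markers of muscle and tendon, tissues that type VI collagen surrounds, were read beside these values. The 4 fast muscle genes summed to 14820, 13718 and 12303 CPM in the sibling libraries and to 14693, 12080 and 12540 CPM in the mutant ones. The 3 tendon genes summed to 46.6, 44.0 and 30.6 CPM in the sibling libraries and to 49.6, 36.8 and 39.6 CPM in the mutant ones. Both sums were lower in all 4 injected libraries than in either uninjected one, also in tars-/- with perk MO, where type VI was at its uninjected level. Single genes did not all follow the sums. Of the 4 fast muscle genes, 1 was higher with gcn2 MO in either genotype and 1 with perk MO in siblings. Of the 3 tendon genes, 1 was higher with gcn2 MO in siblings. Within the tendon list scxa, a tendon transcription factor, went from 4.98 to 1.04 CPM in siblings with perk MO. Their part in the type VI values was not tested.

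**Figure D3:**
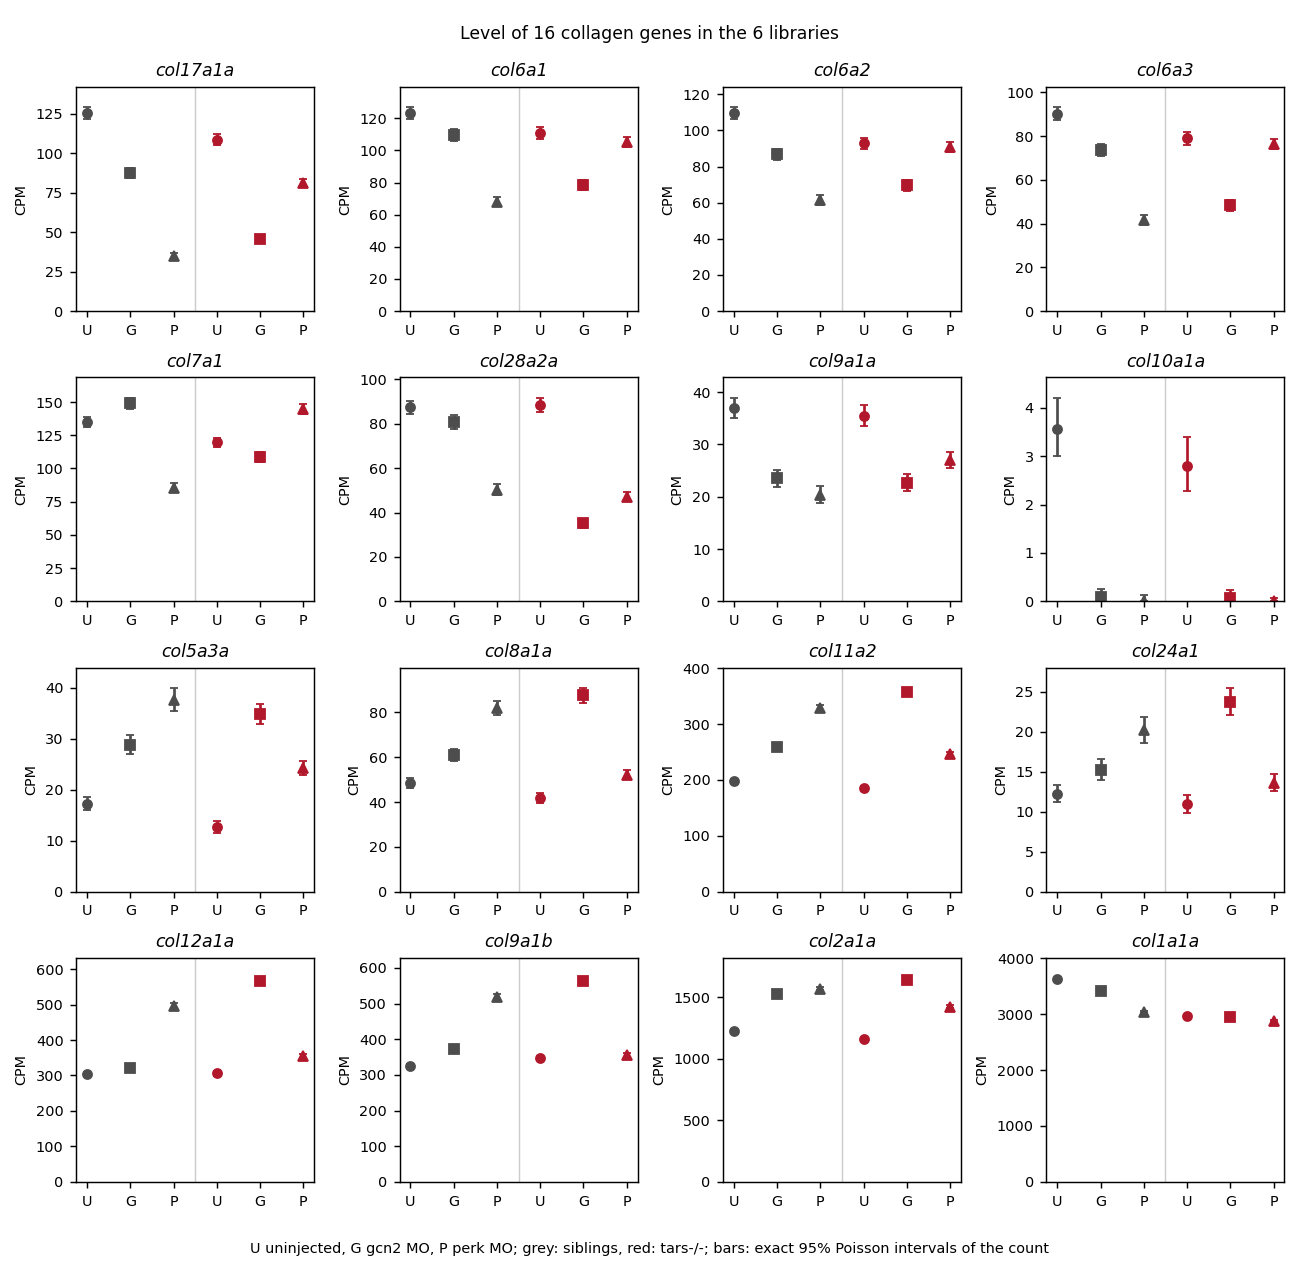
CPM of 16 collagen genes (vertical axes from 0) in the 6 libraries, uninjected (U), gcn2 MO (G) and perk MO (P), siblings in grey and tars-/- in red, with exact 95% Poisson intervals of the counts as bars; the col6a3 panel is the longer gene. col17a1a and the type VI chains are lowest in siblings with perk MO, col10a1a is near 0 in all 4 injected libraries, and col5a3a, col8a1a, col11a2 and col24a1 are highest in the sibling perk MO and tars-/- gcn2 MO libraries.

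The largest contrast between uninjected and injected embryos was that of col10a1a (ENSDARG00000054753), which codes for the type X collagen of hypertrophic cartilage and, in zebrafish, of early bone cells. Its counts were 141, 3 and 0 in siblings and 99, 2 and 0 in tars-/-, or 3.56 and 2.79 CPM in the 2 uninjected libraries. Both uninjected libraries were thus far above all 4 injected ones. The ratio with gcn2 MO was 0.0238 (0.00485 to 0.0709) in siblings and 0.0223 (0.00266 to 0.0826) in tars-/-. With perk MO, taking a count of 0 as at most 3 counts per library, the level was at least 35.6-fold lower in siblings and at least 44.2-fold lower in tars-/-. The gene lies at the abundance minimum and passed it through the 2 uninjected libraries alone, and the members' medians are the same with it at its bound. The uninjected tars-/- library did not differ from the uninjected siblings beyond counting error (ratio 0.783, 0.599 to 1.02). Its paralog col10a1b, under the minimum, had 18, 24 and 21 counts in siblings and 33, 33 and 9 counts in tars-/-. The other short-chain collagen genes went different ways. col8a1a was at 48.6, 60.9 and 81.9 CPM in the sibling libraries and 41.8, 87.6 and 52.3 CPM in the mutant ones, and col8a2 at 4.53, 3.99 and 2.77 CPM in the sibling libraries and 3.78, 2.61 and 3.01 CPM in the mutant ones.

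col28a2a, a type XXVIII chain, was at 87.5, 80.8 and 50.3 CPM in the sibling libraries and 88.6, 35.1 and 47.2 CPM in the mutant ones. It was the lowest in tars-/- with gcn2 MO, with a ratio of 0.397 (0.37 to 0.425) to uninjected tars-/- and of 0.435 (0.406 to 0.466) to siblings with gcn2 MO. Unlike the type VI chains, it was also low in tars-/- with perk MO (ratio 0.533, 0.505 to 0.563, to uninjected tars-/-). col28a1a was at 24.9, 28.8 and 18.2 CPM in the sibling libraries and 22.2, 21.2 and 28.4 CPM in the mutant ones. col21a1, a FACIT chain, was at 7.23, 6.11 and 2.77 CPM in the sibling libraries and 4.43, 2.67 and 4.99 CPM in the mutant ones.

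A second group of members was higher in the injected libraries. It includes chains that build cartilage and notochord sheath, led by col2a1a, the main chain of type II collagen, at 1229, 1527 and 1572 CPM in the sibling libraries and 1158, 1641 and 1425 CPM in the mutant ones. All 4 injected libraries were above both uninjected ones, by 1.24-fold (1.23 to 1.26) and 1.28-fold (1.26 to 1.29) in siblings and by 1.42-fold (1.4 to 1.44) and 1.23-fold (1.22 to 1.25) in tars-/-. Its paralog col2a1b varied less, at 741, 768 and 689 CPM in the sibling libraries and 701, 738 and 767 CPM in the mutant ones. col11a2, which codes for a type XI chain that forms fibrils with type II, was at 198, 259 and 328 CPM in the sibling libraries and 185, 358 and 246 CPM in the mutant ones. Its ratio to the uninjected library was 1.93 (1.87 to 1.99) with gcn2 MO in tars-/- and 1.66 (1.61 to 1.71) with perk MO in siblings. The 3 genes of the type IX trimer col9a1b, col9a2 and col9a3 had the same order of uninjected below injected libraries, which for col9a1b was lost with TMM or DESeq2 factors. col9a1b (ENSDARG00000031483) was at 324, 372 and 519.7 CPM in the sibling libraries and 348, 562 and 357 CPM in the mutant ones. col9a2 was at 221, 279 and 280.2 CPM in the sibling libraries and 221, 301 and 283 CPM in the mutant ones, and col9a3 had 156, 211 and 229 CPM in the sibling libraries and 157, 228 and 207 CPM in the mutant ones.

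The minor fibrillar chains col5a3a (ENSDARG00000098294), of type V, and col24a1 (ENSDARG00000095843), of type XXIV, had larger ratios at lower levels. col5a3a was at 17.3, 28.9 and 37.7 CPM in the sibling libraries and 12.7, 34.8 and 24.2 CPM in the mutant ones. It was 2.74-fold higher with gcn2 MO in tars-/- (2.45 to 3.06) and 2.18-fold higher with perk MO in siblings (1.98 to 2.4), and it was above the uninjected library by 1.67-fold in siblings with gcn2 MO and by 1.9-fold in tars-/- with perk MO. col24a1 was at 12.2, 15.2 and 20.2 CPM in the sibling libraries and 10.94, 23.7 and 13.6 CPM in the mutant ones. In both genes all 4 injected libraries were above the uninjected ones. col12a1a, a FACIT chain of fascia and fin fold in zebrafish, was at 305, 321 and 496 CPM in the sibling libraries and 306, 565 and 355 CPM in the mutant ones. The multiplexin col18a1a, from which endostatin is cleaved, was at 424, 447 and 616 CPM in the sibling libraries and 433, 592 and 490.4 CPM in the mutant ones, and col15a1b varied little, from 34.9 to 39.7 CPM. For col12a1a and col18a1a the uninjected libraries of the 2 genotypes had ratios of 1 (0.977 to 1.03) and 1.02 (0.999 to 1.04).

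Over a list of 9 collagens that the notochord is known to express, 8 passed, namely col2a1a, col8a1a, col9a2, col11a1a, col11a2, col15a1b, col27a1a and col27a1b, and col15a1a was not matched in the tables. Their summed level was 2651, 3186 and 3208 CPM in the sibling libraries and 2486, 3385 and 3067 CPM in the mutant ones. In tars-/-, 8 of 8 were higher with gcn2 MO than without, and 8 of 8 with perk MO, against 59.6% and 57.6% of all genes, though col27a1b was lower under another scaling with gcn2 MO. In siblings, 7 of 8 were higher with gcn2 MO and 5 of 8 with perk MO, against 47.1% and 46.1% of all genes. Notochord markers outside the collagens were read beside them. The 6 of 7 that passed, tbxta, shha, shhb, ntd5, epyc and cmn, summed to 370, 501 and 658 CPM in the sibling libraries and to 351, 688 and 470.0 CPM in the mutant ones, and noto was at 0.65 CPM or less in every library. In tars-/-, 6 of 6 markers were higher with either MO than without, and in siblings 5 of 6 were. Between the genotypes with gcn2 MO, 6 of 6 markers and 4 of 8 notochord collagens were higher in tars-/-. The median log2 ratios were 0.30 and 0.05, beside 0.02 for all genes. With perk MO, 0 of 6 markers and 4 of 8 of these collagens were higher, with medians of −0.27 and 0.00 beside 0.00 for all genes. As the medians of all genes were near 0, about as many genes were higher as lower, and 4 of 8 is close to that background. cmn, which codes for calymmin of the notochord sheath, was at 165, 241 and 355 CPM in the sibling libraries and 157, 387 and 226 CPM in the mutant ones. The cartilage precursor list, with sox9a, acana, acanb, barx1 and dlx2a above the minimum, summed to 129, 107 and 92.1 CPM in the sibling libraries and to 138, 107 and 128 CPM in the mutant ones. The 5 genes of this list went both ways. With gcn2 MO in tars-/-, 2 were at least 2-fold higher (2.97% of all genes) and 3 were lower by any amount. With perk MO in siblings, 2 were higher, 1 of them at least 2-fold (2.5% of all genes), and 3 were lower. matn1, a marker of differentiated cartilage, stayed at or below 0.57 CPM. How much of the collagen values goes with the amount of notochord RNA was not tested.

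These orders can be counted over all members. Both uninjected libraries were below all 4 injected ones in 15 of 52 members, or 28.8%, where 15.5% of all genes were. Both were above all 4 in 9 members, or 17.3%, against 13.7% of all genes, and these were col10a1a, col14a1b, col17a1a, col18a1b, col28a2a, col6a1, col6a2, the longer col6a3 gene and col9a1a. The sibling perk MO and tars-/- gcn2 MO libraries were the 2 lowest in 18 members (34.6%, against 18.9% of all genes) and the 2 highest in 15 (28.8%, against 21.4%). The 2 comparisons of these libraries with the uninjected library of their genotype share no library, and 41 of 52 members (78.8%, against 71% of all genes) had the same sign in both. With TMM factors the counts were 13 of 52 below (14.9% of all genes) and 9 above (17.3% of members, against 15.8% of all genes). A further 21 were lowest (20.3% of all genes), 15 highest (21% of all genes) and 47 had the same sign (72.7% of all genes). The 13 held 12 of the 15, without col9a1b, col12a1a and col18a1a.

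Paralogs, gene copies from the genome duplication of teleosts, did not always follow each other, and 5 pairs differed by at least 1 log2 unit in some comparison. col9a1a was at 37.0, 23.5 and 20.4 CPM in the sibling libraries and 35.5, 22.7 and 27 CPM in the mutant ones, lower in all 4 injected libraries, whereas col9a1b was higher in all of them, except in tars-/- with perk MO under TMM factors. With perk MO in siblings their log2 ratios were −0.84 and 0.68. col14a1b was at 495, 412 and 296 CPM in the sibling libraries and 536, 357 and 476 CPM in the mutant ones, while col14a1a was at 64.2, 79.2 and 89.7 CPM in the sibling libraries and 59.1, 86.8 and 73.9 CPM in the mutant ones. These 2 type XIV genes, which code for fibril-associated chains, were thus ordered in opposite ways. col18a1b was at 2.65, 2.04 and 0.53 CPM in the sibling libraries and 2.12, 0.96 and 1.68 CPM in the mutant ones, with a ratio of 0.201 (0.111 to 0.342) with perk MO in siblings, where col18a1a had a ratio of 1.45 (1.42 to 1.48). col5a3b, much more abundant than col5a3a with a mean of 99.9 against 3.84 FPKM, was at 587, 641 and 482 CPM in the sibling libraries and 562, 534 and 606 CPM in the mutant ones. The fifth pair was col17a1a and col17a1b, whose log2 ratios with perk MO in siblings were −1.83 and −0.63. Reads of near-identical stretches could be divided between such copies, and this was not examined.

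The remaining members are described by their range over the 6 libraries. col5a1, col11a1a, col11a1b, col12a1b, col16a1, col4a1, col4a2 and col4a3bpb had a highest library at most 1.4 times the lowest, and col5a2a, col27a1a, col27a1b, col4a3, col4a4 and col4a3bpa at most 1.79 times. The 2 col19a1 genes, at means of 5.60 and 1.09 CPM, were both highest in tars-/- with gcn2 MO, at 7.77 and 1.68 CPM, and lowest in uninjected tars-/-, at 4.32 and 0.62 CPM. A further 4 genes of the tables carry a collagen name only in the reference gene names and fell outside the rule, col23a1a at a mean of 20.9 CPM, col23a1b at 5.23, another col7a1l at 2.85 and col28a2b at 0.21 CPM.

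The only test with residual degrees of freedom, 2 of them, was an additive model of genotype and injection over the 6 libraries, in which any dependence of an MO effect on genotype counts as spread. With edgeR's quasi-likelihood test, 0 of 52 members had a Benjamini-Hochberg adjusted p under 0.05 for genotype, for gcn2 MO or for perk MO, as did 0% of the 19194 genes. At an unadjusted p under 0.05 there were 0, 6 and 7 members, against 3.49%, 8.07% and 8% of all genes. DESeq2 passed 0, 1 and 0 members, the 1 being col10a1a with gcn2 MO (DESeq2 adjusted p = 9.81e-06), for which DESeq2 gave no adjusted p with perk MO. Of all genes it passed 0.995%, 0.453% and 0.474%. col10a1a passed the abundance minimum only through the uninjected libraries in which it is high, so this call says nothing about the members as a group. In edgeR, the smallest adjusted p of a member were those of col10a1a, 0.578 with gcn2 MO and 0.494 with perk MO, at 2 of 2 genotypes lower with either MO. At 0.618, 5 members shared the next adjusted p for gcn2 MO, namely col5a3a, col8a1a, col9a1a, col9a3 and col11a2. Among them col5a3a had a log2 fold change of 1.08 ± 0.25 (SE) for gcn2 MO. A member that missed the threshold is not shown to be unaltered.

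A list of 71 genes that modify, fold, export, trim, cross-link, bind, degrade or regulate collagens was read beside the members, and 61 of them passed the minimum. The largest difference between the uninjected libraries was in serpinh1b, which codes for Hsp47, the collagen chaperone of the endoplasmic reticulum. It was at 876, 342 and 1101 CPM in the sibling libraries and 2977, 1046 and 1704 CPM in the mutant ones. It was higher in tars-/- than in siblings in every injection state, by 3.4-fold (3.36 to 3.44) without injection. Within tars-/- it was at 0.351 (0.347 to 0.356) of the uninjected level with gcn2 MO and at 0.572 (0.567 to 0.578) with perk MO. In siblings, the level with gcn2 MO was 0.391 (0.383 to 0.399) of that without. It was the only 1 of the 61 genes at least 2-fold apart between the uninjected genotypes, against 1.68% of all genes. The list's median log2 ratio was −0.20, beside −0.18 for the members and −0.11 for all genes.

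Its paralog serpinh1a had another order, at 139, 159 and 271 CPM in the sibling libraries and 100.97, 254 and 118 CPM in the mutant ones. The same order, with the sibling perk MO and tars-/- gcn2 MO libraries highest, was also seen in p4ha1b, adamts3, loxl2a and mmp2. Like serpinh1a, they were named because they were at least 2-fold apart in comparisons with these libraries, so the choice favoured this order. How many of the 61 listed genes had it is not given here, and 21.4% of all genes had it. p4ha1b, a prolyl 4-hydroxylase subunit, was at 24.2, 21.1 and 33.9 CPM in the sibling libraries and 15.6, 33.9 and 13.7 CPM in the mutant ones. adamts3, a procollagen N-proteinase, was at 13.4, 16.1 and 30.4 CPM in the sibling libraries and 16.8, 38 and 23.4 CPM in the mutant ones. In all 3 of these genes the uninjected libraries and tars-/- with perk MO were below both. loxl2a, a lysyl oxidase that cross-links collagen, was at 20.9, 28.7 and 51.9 CPM in the sibling libraries and 27.5, 53.9 and 33.5 CPM in the mutant ones. mmp2, a gelatinase that degrades type IV and denatured collagen, was at 85.1, 121 and 208 CPM in the sibling libraries and 84.9, 198 and 100.4 CPM in the mutant ones.

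**Figure D4:**
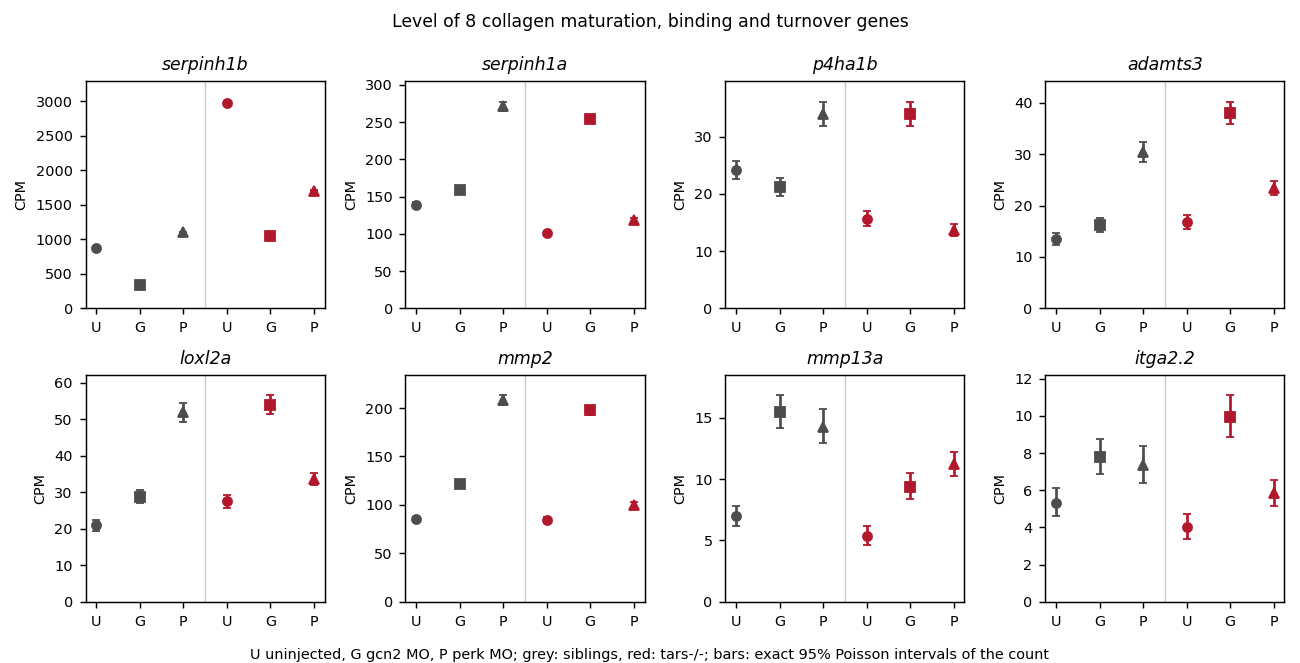
CPM (vertical axes from 0) of 8 genes that fold, modify, trim, cross-link, bind or degrade collagens in the 6 libraries, uninjected (U), gcn2 MO (G) and perk MO (P), siblings in grey and tars-/- in red, with exact 95% Poisson intervals of the counts. serpinh1b is highest in uninjected tars-/-, while serpinh1a, p4ha1b, adamts3, loxl2a and mmp2 are highest in the sibling perk MO and tars-/- gcn2 MO libraries.

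Over the whole list, gcn2 MO in tars-/- left 7 of 61 genes at least 2-fold higher and 1 lower, against 2.97% and 2.68% of all genes, with a median log2 ratio of 0.31 beside 0.09 for all genes. The 7 were p4ha1b, serpinh1a, adamts2, adamts3, mmp2, the integrin subunit gene itga2.2 and ddr1, a receptor kinase for collagen, and the lower gene was serpinh1b. With TMM factors p4ha1b and ddr1 were just under 2-fold (log2 ratios of 1.00 and 0.97). perk MO in siblings left 3 higher, adamts3, loxl2a and mmp2, and 0 lower, against 2.5% and 5.27% of all genes, with a median of 0.20 beside −0.04 for all genes. With perk MO in tars-/- the collagenase gene mmp13a was the 1 gene 2-fold apart, from 5.33 to 11.2 CPM (0.781% of all genes were higher), though its log2 ratio of 1.01 was 0.96 with TMM factors. With gcn2 MO in siblings mmp13a was higher and serpinh1b lower, against 0.745% and 1.11% of all genes. Between the genotypes with perk MO, 4 genes were 2-fold lower in tars-/-, p4ha1b, serpinh1a, mmp2 and mmp9, against 2.01% of all genes, and with gcn2 MO 2 were 2-fold higher, serpinh1b and adamts3, against 1.85%. The list holds 4 transcription factors of cartilage collagens. In tars-/-, 1 of the 4 was above its uninjected level after gcn2 MO and 2 were after perk MO, against 59.6% and 57.6% of all genes. For siblings these counts were 2 and 0, against 47.1% and 46.1% of all genes. sox9b, chosen after its values were seen, was at 231, 146 and 122 CPM in siblings and 216, 130.3 and 135 CPM in tars-/-. It was lower in all 4 injected libraries, and col2a1a was higher in them. The part of these factors in the col2a1a values was not tested.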

How the data were processed

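RNA-seq libraries of whole zebrafish embryos at 36 hpf, 1 for each of 6 conditions, were analysed. Per the labels and the study's methods, the genome build was GRCz10 with Ensembl annotation release 91, HISAT2 (version 2.0.5) was the aligner and HTSeq (version 0.9.1) the counter. The authors deposited raw counts, gene lengths and FPKM values, and the deposited FPKM equal count divided by length and library total to within 5.0e-06. Whether counting used strand is not given in the sources used here. Library totals were 29949451 to 47516784 counts.

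Counts were scaled by library total to CPM, 0.5 CPM was added before log2 ratios, and the abundance minimum was 1 CPM on average. Ratio intervals are exact Clopper-Pearson intervals at 95% and cover counting error only. The additive model used edgeR (version 4.0.16, TMM factors, quasi-likelihood F-test) on the deposited counts, with DESeq2 (version 1.42.0) as the alternative. Alternatives were other scalings, pseudocounts of 0.1 and 2 CPM, other abundance minimums, a 1.5-fold threshold, thinning to the smallest total, and leaving out libraries. The scripts were tested on simulated counts with known changes, which had less spread than the common dispersion of 0.052 that edgeR fitted here. Such tests check the code and do not measure how often real changes are found in these data.

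The members, gene lists and tests were chosen with earlier results of these data known. Named were the 2 most abundant members per class by FPKM, the up to 4 largest differences in each direction of at least 1.5-fold per comparison among members with a mean of at least 5 CPM, paralogs that differ by 1 log2 unit, and listed maturation genes at least 2-fold apart. Other genes named, such as col2a1a, col10a1a and sox9b, were chosen after their values were seen. Gene names absent from the tables were taken from a gene-name table, neighbouring genes from the order of start positions in RefSeq (GRCz12tu), and no sequences were used.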

Additional observations from a re-analysis of the deposited data

Results flagged for a closer look

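With perk MO, 7 members went one way in siblings and the other way in tars-/-, with counting intervals that leave out a ratio of 1 in both and effects at least 1.5-fold apart. That is 13.5% of the 52 members, beside 7.03% of all 19194 genes, and with gcn2 MO 0 members and 5.16% of all genes did so. The difference between the 2 genotypes was not tested, since each rests on 1 library per condition. For the shorter col6a3 gene (ENSDARG00000095915) the log2 ratio of perk MO to uninjected was −1.41 in siblings and 0.29 in tars-/-, 1.704 apart. For col6a4a it was −0.84 and 0.10, 0.94 apart, and for col7a1 −0.65 and 0.27, 0.93 apart. col28a1a had −0.44 and 0.35, 0.79 apart, and col4a4 had −0.52 and 0.20, 0.72 apart. col5a2a had −0.53 and 0.11, 0.64 apart, and col27a1a had −0.22 and 0.38, 0.61 apart. In all 7 the ratio was below 1 in siblings, as it was in 970 of the 1350 genes that met the same rule with perk MO. The values share the library of siblings with perk MO. This rule was applied to CPM only. TMM factors would bring the ratios of these 7 nearer to 1 in both genotypes, so some of them may not meet it on that scale.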

How the results depend on the processing

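The median log2 ratio of members in uninjected tars-/- against siblings was −0.064 with TMM factors and −0.075 with DESeq2 size factors, instead of −0.18, because CPM left the median of all genes at −0.11. With gcn2 MO in tars-/- the median changed sign, from 0.08 to −0.015 with TMM and −0.014 with DESeq2 size factors, close to that of all genes each time, and no direction is read from it. With perk MO in siblings it went from −0.24 to −0.10 at a minimum of 5 CPM, and its difference from all genes from −0.20 to −0.074. With a pseudocount of 2 CPM, the members 2-fold apart numbered 1 with gcn2 MO and 1 with perk MO between the genotypes. With no abundance minimum they numbered 2 with perk MO in tars-/- and 2 with gcn2 MO in siblings. With a minimum of 5 CPM the counts were 0 for perk MO in tars-/-, 0 and 4 for the gcn2 and perk MO in siblings, and 1 between the genotypes with gcn2 MO. At 1.5-fold the counts were 2 without injection, 18 (gcn2 MO) and 3 (perk MO) in tars-/-, 3 and 22 in siblings, and 10 and 12 between the genotypes under the same MO. For gcn2 MO averaged over genotypes, DESeq2 passed 1 member. Leaving out 1 library, the members that passed edgeR ranged from 0 to 0 for genotype, from 0 to 7 for gcn2 MO (7 without siblings with gcn2 MO, where 887 of 19194 genes passed) and from 0 to 13 for perk MO (13 without tars-/- with perk MO, where 1595 passed), and the cause was not tested. In both of those fits the library left out had received the MO tested, so that MO was fitted from 1 library in 1 genotype. They are therefore not tests averaged over genotypes, and no conclusion is drawn from them. No paired analysis was possible because each condition has 1 replicate number, beyond the additive model itself, which compares the genotypes within injection states. Spread between embryos of a condition was not measured.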
